A study of Drosophila melanogaster with 3 samples.

Results

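The 471 ChIP-seq summits described here lie in chromatin next to the centromeres or on chromosome 4, out of 30000 summits called on the pooled libraries (1.57%). They were chosen by position alone, with no measured strength. A summit counted when it was on chromosome 4, beyond 22000000 on 2L, beyond 22900000 on 3L, before 4200000 on 3R or beyond 22600000 on X, in dm6 coordinates. Chromosome 4 held 215 of them, 3L held 81, X held 77, 2L held 69 and 3R held 29. The other 29528 summits on the 6 arms 2L, 2R, 3L, 3R, 4 and X served for comparison. The centromere-proximal part of 2R is among these, because the rule has no boundary there.

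The libraries came from a transgenic *Drosophila melanogaster* line that stably expresses zen with eGFP at its C terminus, and an antibody against GFP was used for immunoprecipitation. Whole embryos of pooled sex, aged 0 to 4 h, gave 3 biological replicates that form 1 group. Whether the line keeps untagged zen is not given, and signal from all cells of the embryo is merged. Since no file gives reads per peak, library depth is unknown and counting error could not be set. Each library list also held 30000 summits, of which 464, 561 and 507 fell in the same regions in replicates 1, 2 and 3.

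Zen is a homeodomain transcription factor required on the dorsal side of the early embryo, where the amnioserosa forms. Pericentric heterochromatin is rich in transposable elements and satellite repeats and carries methylated histone H3 lysine 9 and HP1, yet it holds essential genes whose expression depends on that environment. Chromosome 4 is a small chromosome on which active genes are interspersed with heterochromatin, and a chromosome-specific protein coats it.

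Sequences of 151 bp centred on 7 summits are shown so that the strongest sites can be set beside sites in each pericentric region and inside a transposable element. The words that were counted in all summit windows are in capitals on whichever strand they lie. These are TAATTA, a core bound by many homeodomains, CAGGTA, the core of the Zelda site, GAGAG, bound by GAGA factor, TATCGATA, bound by DREF, the repeat CACACA, and TAAATT, a control with the bases of TAATTA in another order. TAATTA reads the same on both strands and TAAATT does not, so TAAATT can match in more ways. All sequence is from the RefSeq Release 6 assembly. The 4 pericentric windows are each the strongest in their region that touches no annotated UTR. The 3R window is labelled by its nearest gene, *CG41128*, which is 37458 bp away.
181 bp upstream of *zfh2*, the strongest of all the summits, dm6 chr4:501554-501704, + strand: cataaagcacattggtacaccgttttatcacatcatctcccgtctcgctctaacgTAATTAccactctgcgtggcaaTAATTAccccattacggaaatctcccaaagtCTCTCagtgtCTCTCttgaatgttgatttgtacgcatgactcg
10850 bp upstream of *dati*, the next strongest, dm6 chr4:406380-406530, + strand: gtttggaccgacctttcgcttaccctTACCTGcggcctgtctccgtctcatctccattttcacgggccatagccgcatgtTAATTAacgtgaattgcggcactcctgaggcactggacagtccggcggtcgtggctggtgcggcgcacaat
205 bp upstream of *Clamp*, dm6 chr2L:22169273-22169423, + strand: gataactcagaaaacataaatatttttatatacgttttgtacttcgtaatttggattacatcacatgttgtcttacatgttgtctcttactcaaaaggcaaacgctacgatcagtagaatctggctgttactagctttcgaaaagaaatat
76 bp upstream of *MED21*, dm6 chr3L:25115947-25116097, + strand: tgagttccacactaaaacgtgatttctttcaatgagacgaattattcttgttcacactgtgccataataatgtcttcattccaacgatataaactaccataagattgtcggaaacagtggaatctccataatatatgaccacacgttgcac
intergenic, near *CG41128*, dm6 chr3R:3789736-3789886, + strand: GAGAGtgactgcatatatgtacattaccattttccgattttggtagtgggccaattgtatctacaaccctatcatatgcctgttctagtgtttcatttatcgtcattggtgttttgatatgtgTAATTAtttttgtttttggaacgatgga
intron of *fog* and of *CG42346*, dm6 chrX:22837522-22837672, + strand: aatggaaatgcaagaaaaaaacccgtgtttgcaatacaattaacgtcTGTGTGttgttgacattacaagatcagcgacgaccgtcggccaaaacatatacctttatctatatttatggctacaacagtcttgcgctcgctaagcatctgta
INE-1 element in an intron of *Ir40a*, dm6 chr2L:22212427-22212577, + strand: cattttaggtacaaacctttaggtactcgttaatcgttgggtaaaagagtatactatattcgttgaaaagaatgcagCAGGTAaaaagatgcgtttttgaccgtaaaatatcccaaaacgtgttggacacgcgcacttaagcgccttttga
The *zfh2* window holds TAATTA at 2 places and GAGAG on the reverse strand at 2 places. The *dati* window holds TAATTA and, reversed, CAGGTA. The windows at *Clamp* and *MED21* hold none of the 6 words, and that says only that these letters are not in these windows. Among windows of this length at all pooled summits on the 6 arms, 12.7% held TAATTA, 5.62% CAGGTA, 18.4% GAGAG, 2.14% TATCGATA, 15.6% CACACA and 21.6% TAAATT.

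Summits were sparse in these regions. There were 36.1 per assembled Mb against 245 in the rest of the arms, a difference of −2.76 on the log2 scale. In the libraries the difference was −2.79, −2.51 and −2.66 in replicates 1, 2 and 3 (mean −2.65 ± 0.14, SD, n = 3), so all 3 libraries were lower by far more than their spread. The exact two-sided sign-flip permutation test over the 3 library differences gave p = 0.25, which is the smallest value that 3 libraries allow. This limit holds for every test below. Genes were also sparser here. The regions hold 195 protein-coding genes in 13.1 assembled Mb, and the rest holds 13750 in 120.6 Mb. The part of gene density in the summit density was not tested.

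The 5 regions were unlike each other. Chromosome 4 was the densest, with 171 ± 25.6 summits per Mb over the libraries (SD, n = 3), and its libraries held 228, 261 and 193 summits. X followed with 69.5 ± 4.30 per Mb from 63, 70 and 63 summits, and 2L with 53.1 ± 6.68 per Mb from 74, 92 and 75 summits. The 3L region had 19.4 ± 5.30 per Mb from 71, 100 and 125 summits. The 3R region was the sparsest, at 9.34 ± 2.76 per Mb from 28, 38 and 51 summits. Chromosome 4 exceeded the 4 pericentric regions in each library, and its libraries did not overlap those of the rest, at 245 ± 0.404 per Mb. Every list holds 30000 summits, nearly all of them in the rest, so the list size keeps the spread of the rest small. X and 2L did not overlap over the libraries, with 67.0 to 74.4 per Mb on X and 48.9 to 60.8 on 2L, and neither did 3L and 3R, with 13.9 to 24.5 and 6.71 to 12.2. Replicate 3 had the most summits on 3L and 3R and the fewest on chromosome 4.

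**Figure D1:**
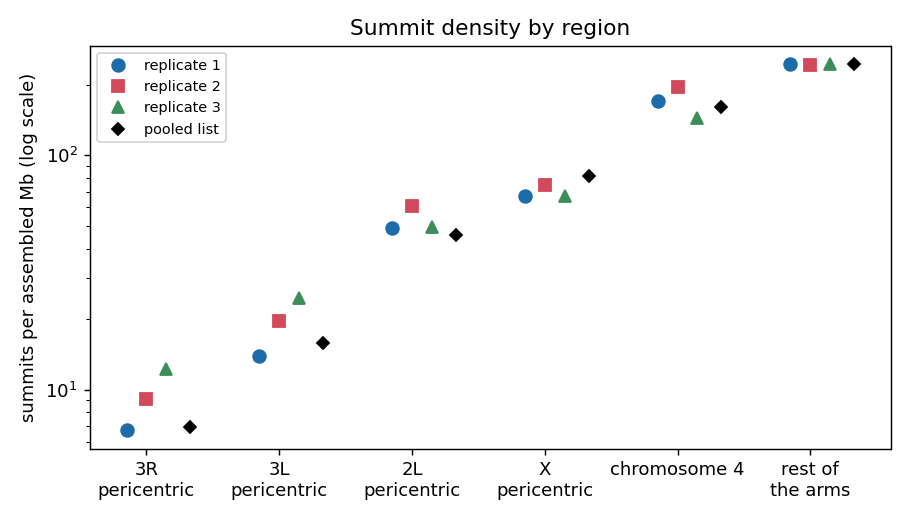
Summits per assembled Mb in each region and in the rest of the 6 arms, on a log axis, with 1 point per library and the pooled list marked separately. Chromosome 4 lies nearest the rest, and the 3R region lies lowest.

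Part of this sequence occurs at several places in the genome, where a short read has no single placement. Only 45.1% of the assembled bases of these regions start a 32-base word found once in the assembly, against 92.1% in the rest, and the share was 34.4% in 3R, 41.1% in 3L, 49.2% in 2L, 52.1% in X and 84.4% on chromosome 4. Per Mb of such unique sequence, the pooled list held 79.97 summits in the regions and 266 in the rest, a log2 difference of −1.73. Chromosome 4 then stood at 191 per Mb, X at 157, 2L at 92.7, 3L at 38.6 and 3R at 20.2. The order of the regions was the same on both scales. No label gives the read length or the handling of reads with several placements, so how far uniqueness at 32 bases stands for the reads placed was not tested.

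On 2L, 3L and 3R the fall in density was concentrated close to the boundaries. Of the 256 pericentric summits, X included, 177 lay in the first 0.5 Mb inside a boundary, at 88.6 per Mb. The 9.72 Mb beyond held 79, at 8.13 per Mb. The 177 include 74 on X, where density rose across the boundary. On 3R the library mean fell from 277 ± 13.3 per Mb in the last 0.5 Mb outside the boundary to 45.5 ± 11.4 in the first 0.5 Mb inside and 4.67 ± 3.06 in the next. The 3L profile was similar in shape, at 233 ± 4.62, 84.0 ± 14.0 and 14.7 ± 8.33 per Mb. On 2L the values were 261 ± 43.5, 105 ± 11.4 and 28.7 ± 9.02 per Mb. The share of unique sequence fell over the same bins, at 90.4%, 48.8% and 34.8% on 3R and 90.3%, 70.6% and 56.9% on 3L. On 2L it was 79.8%, 65.9% and 43.1%. The part of unique sequence in these falls was not tested.

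X had another profile. The sequence from 22100001 to 22600000, just outside the boundary, had 57.4 ± 10.5 summits per Mb, and the 0.5 Mb before it had 10.7 ± 3.05, the lowest value within 2 Mb outside any boundary. The first 0.5 Mb inside the boundary had 125 ± 8.08 per Mb and held 74 of the 77 pooled X summits. The shares of unique sequence moved with these counts, at 40.7%, 15.6% and 81.5% in the same order, and their part in the profile was not tested. The densest stretch of the X region was therefore flanked on both sides by sparser sequence.

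**Figure D2:**
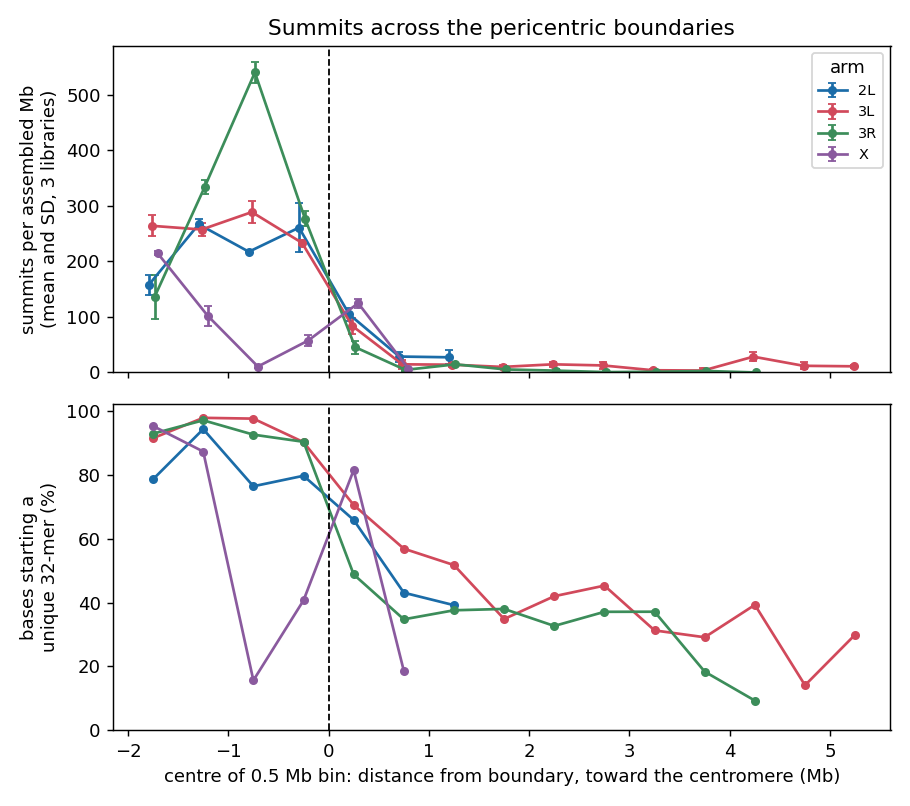
Summits per assembled Mb in 0.5 Mb bins by distance from each of the 4 boundaries, as library means with SD (n = 3, top), and the percent of bases that start a unique 32-base word in the same bins (bottom), with negative distances outside the regions. Density falls across the boundary on 2L, 3L and 3R, and on X low values of both measures lie on either side of the first bin inside.

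The summits nearest each boundary ranged from rank 8520 to rank 27611 in the list. On 2L the nearest inside ranked 14961 of 30000 by the authors' signal and the nearest outside ranked 13627. On 3L they ranked 18751 and 24071, on 3R 8520 and 10453, and on X 27611 and 14605. None of the 8 was in the set that the authors kept by the irreproducible discovery rate (IDR), and which is identical to the 7405 best-ranked pooled summits. Rank 1 is the strongest.

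Along chromosome 4 the density varied between 200 kb bins. It was highest from 400001 to 600000, with 285 ± 36.1 per Mb (SD, n = 3), and from 800001 to 1000000, with 280 ± 26.5. The 4 other complete bins lay between 122 and 150 per Mb. The end of the chromosome beyond 1200000 had 35.6 ± 8.81 per Mb, with 42.2% unique sequence. The first dense bin holds *Asator*, *zfh2* and the strong site upstream of *dati*, and the other holds the start of *toy*.

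The IDR set held 102 of the 471, or 21.7%, against a background of 24.7% over the 6 arms. On chromosome 4 it held 58 of 215 (27.0%), on 2L 17 of 69 (24.6%), on 3L 15 of 81 (18.5%), on 3R 5 of 29 (17.2%) and on X 7 of 77 (9.09%). A comparable share in the libraries, the part of their summits in the library's own top 7405, differed from the rest by −2.31 and −4.08 percentage points in replicates 1 and 2 and by 0.17 points in replicate 3. The exact sign-flip permutation test gave p = 0.50. The X region had the lowest share in each library, at 7.94%, 14.3% and 11.1%, although it was the densest of the pericentric regions.

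A counterpart within 100 bp in all 3 libraries was found for 165 of the summits (35.0%), against 38.4% over the 6 arms. Another 156 had a counterpart in 2 libraries, 120 in 1 and 30 in none. In the matching comparison that starts from each library's own list, the share differed from the rest by −4.32, −8.75 and −5.67 points (exact sign-flip permutation p = 0.25). Within the IDR set 87 of 102 were found in all 3 libraries, or 85.3% against 88.4% in the rest. The 3R region had the highest share of its summits in all 3 libraries, 16 of 29, but only 2 of its 5 IDR summits were, since the strongest were unmatched in a library.

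Of the 20 strongest summits by signal, 14 were on chromosome 4, 3 on 2L, 2 on 3L, 1 on X and 0 on 3R. All 20 had a counterpart in each library. Of these, 9 lay within 200 bp of a protein-coding start, and the range from 200 to 500 bp held no more.

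The strongest lay 181 bp upstream of *zfh2*, which encodes a zinc finger homeodomain factor. It ranked 260 in the pooled list and 226, 170 and 720 in replicates 1, 2 and 3. The gene had a second strong site 3882 bp upstream, at rank 552, and 415, 606 and 920 in the libraries. Both were thus high in every library and lowest in replicate 3.

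The summit 10850 bp upstream of *dati*, a zinc finger factor gene, ranked 344, and 260, 176 and 987 in the libraries. An intergenic summit at 424803 ranked 380, and 531, 353 and 311. Its nearest gene is *lgs*, whose product links Armadillo to Pygopus in Wnt signalling, with the start 19108 bp away. Here replicate 3 had the best rank of the libraries.

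The summit 95 bp upstream of *toy*, a Pax6 gene, ranked 609, and 570, 394 and 1296 in the libraries. The one 163 bp upstream of *PlexA*, a semaphorin receptor gene, ranked 651, and 1225, 839 and 351. A summit 2092 bp upstream of *ci*, the transcription factor of Hedgehog signalling, ranked 702, and 431, 544 and 1963. The spread between libraries at *PlexA* and *ci* ran in opposite directions, with replicate 3 best at the former and weakest at the latter.

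The 3′ UTR of *tio*, a zinc finger gene related to *teashirt*, held the strongest summit of the pericentric regions. It lies on 2L at 22024621 and ranked 725, and 854, 633 and 772 in the libraries, an even spread. The next on 2L was 27 bp downstream of the start of *dunk* and within an intron of *CG42748*. It ranked 768, and 551, 508 and 2180. The product of *dunk* acts on myosin at the cellularization front of the early embryo.

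A summit in a 3′ UTR where *sv*, a Pax2 gene, and *Cals*, which encodes calsyntenin, overlap ranked 811, and 902, 1149 and 609 in the libraries. A summit 6780 bp upstream of *fd102C*, a forkhead factor gene, and nearest to *Gyf* ranked 910, and 695, 560 and 2394. The strongest X summit lies in an intron of both *fog*, the secreted ligand for apical constriction at gastrulation, and *CG42346*. It was 1338 bp upstream of the nearest *fog* start and ranked 1648, and 1501, 1182 and 3089. Replicate 3 had the weakest rank in 9 of the 20 strongest.

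The remaining strong summits ranked between 1930 and 2590. On chromosome 4 they lay at *Asator*, a tubulin-associated kinase gene, 89 bp upstream of *RpS3A*, in an intergenic position nearest to *ey*, a Pax6 gene, 76 bp upstream of *anne* and 88 bp upstream of *gw*, the GW182 protein of miRNA silencing. On 2L there was a summit 76 bp upstream of a start of *RpL5*. On 3L there were summits 76 bp upstream of *MED21*, a Mediator subunit gene, and 6041 bp upstream of *lovit*. The *RpS3A* summit ranked 1945, and 2765, 1887 and 1223 in the libraries, so replicate 3 had its best rank.

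The strongest summit of the 3R region, 29 bp upstream of *CG41128*, ranked 3913. It had no counterpart within 100 bp in replicate 1 and ranked 5659 and 3771 in replicates 2 and 3. The strongest at 3R with all 3 libraries is the window printed above, at rank 5069, and 5850, 6605 and 5004 in the libraries. That window lies 37458 bp from *CG41128*, its nearest gene.

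**Figure D3:**
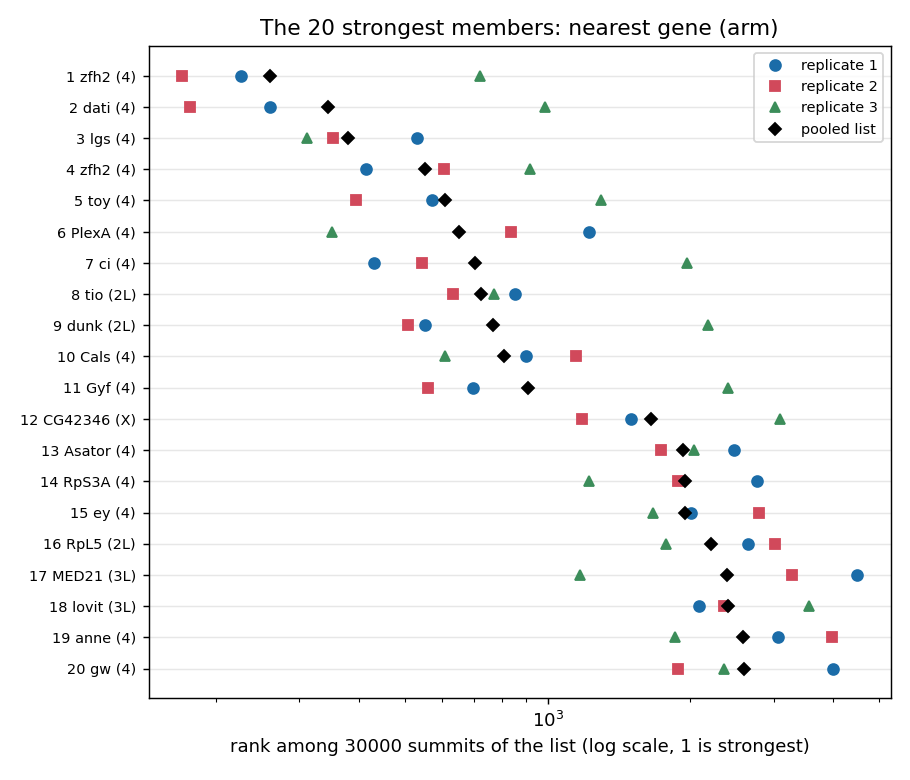
Rank by signal of the 20 strongest summits in the pooled list and in each library, on a log axis where smaller is stronger. All 20 have a counterpart in each library, and the rank in replicate 3 is the weakest at 9.

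The genes with the most summits, counted in the gene body and 2000 bp on either side, were *CG42346* with 20, *fog* and *CG42748* with 18 each, and *Sox102F*, *dati* and *Asator* with 13 each. The territories of *fog* and *CG42346* overlap, so most of their summits are shared. Of the 18 at *fog*, 5 were in the IDR set, beside 24.7% of all pooled summits on the 6 arms. Several of the others were matched in fewer than 3 libraries, where 38.4% of all pooled summits were matched in all 3.

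Over all protein-coding genes of the 6 arms, 72.9% had a pooled summit in this territory and 46.8% had an IDR summit. The share with a pooled summit was close to this, at 72.5% on chromosome 4 and 74.8% in the pericentric regions. Of the 80 genes on chromosome 4, 46 had an IDR summit (57.5%), and in the pericentric regions 40 genes did (34.8%). Gene length differs between these sets, with a median of 10090 bp on chromosome 4, 6527 bp in the pericentric regions and 2145 bp in the rest, and longer genes have larger territories. The part of length in these shares was not tested.

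Of 21 chromosome 4 genes for transcription and signalling, 17 had a pooled summit and 16 an IDR summit. In the libraries 15, 15 and 15 of them had a summit in the top 7405. Eye and head factors *ey* and *toy*, the zinc finger genes *zfh2* and *dati*, *sv*, *Sox102F*, the Hedgehog effector *ci*, the Wnt effectors *pan* and *lgs*, the Ski family gene *fuss*, the TGF-β ligands *mav* and *myo*, the pair *Ephrin* and *Eph*, *PlexB* and the adhesion gene *Zyx* made up the 16. Within 2000 bp, the best summit of *sv* ranked 811, that of *ey* 1952 and that of *pan* 3113. That of *ci* ranked 7103, since the strong summit upstream of *ci* lies just beyond 2000 bp. The best summit of *ey* lies 769 bp past the end of the gene. Another, 37 bp upstream of the *ey* start, ranked 6497 and is also the best summit of *myo*.

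Of 19 chromosome 4 genes for general cell functions, 16 had a pooled summit and 11 an IDR summit, with 14, 11 and 15 in the libraries' top 7405. The 11 were *RpS3A*, the ATP synthase gene *ATPsynbeta*, the DNA repair gene *Rad23*, *Slip1*, the Mediator gene *MED26*, the small GTPase gene *Arl4*, *CaMKI*, *gw*, *Ank*, *Asator* and the complex I gene *ND-49*. Of 11 genes on the fixed list named neuronal and muscle, 8 had a pooled summit and 4 an IDR summit, namely *unc-13*, *Syt7*, *mGluR* and *Zip102B*, with 5, 5 and 6 in the libraries. The class of these genes, *Zip102B* included, was set by the list alone. Neighbouring genes share summits: the best summit of *Syt7*, at rank 3039, is also that of *Rad23*, and *CaMKI* and *lgs* share theirs at rank 2768, as do *Ephrin* and *ND-49* at rank 4380.

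Of 25 pericentric genes from a fixed list, 23 had a pooled summit and 11 an IDR summit, with 12, 14 and 18 in the libraries' top 7405. The 11 included *lt*, a vacuolar sorting gene long used to study genes that work inside heterochromatin, where a site 100 bp upstream ranked 4313, and 4273, 5852 and 4550 in the libraries. The Gα gene *cta*, which acts downstream of *fog*, had a summit 33 bp upstream that ranked 4993, and 3884, 7570 and 3643. The others were *fog*, *tio*, *RpL5*, *RpL15*, the piRNA gene *AGO3*, the kinase gene *CkIIalpha*, the histone methyltransferase gene *Set1*, *nrm* and the mitochondrial import gene *Tim17b*. Neighbours share summits here too. The only IDR summit of *Set1* is the one 76 bp upstream of *MED21*, and that of *CkIIalpha* lies 113 bp upstream of *RpL10*. The median length of these 25 genes was 23927 bp. The 92% with a pooled summit thus stands beside larger territories than the 72.9% of all genes or the 74.8% of all pericentric genes.

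Ribosomal protein genes were chosen for a count after their values were seen. All 5 in the regions, *RpL10*, *RpL15*, *RpL5*, *RpL21* and *RpS3A*, had an IDR summit, as did 75 of 85 on the 6 arms. The nearest summits lay 113, 76, 76, 5 and 89 bp upstream of a start and ranked 2602, 3010, 2205, 4238 and 1945. The share was thus also high outside these regions.

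Summits were more often close to a transcript start than elsewhere. Of the 471, 170 lay within 500 bp of a start of any annotated gene (36.1%), against 30.9% over the 6 arms. The difference from the rest was 5.28, 5.01 and 1.32 points in replicates 1, 2 and 3 (exact sign-flip permutation p = 0.25), positive in each. Without chromosome 4 the pooled difference was 2.80 points (library mean 2.51 ± 3.44, SD, n = 3, exact sign-flip permutation p = 0.50). The pericentric share was 36.9%, 33.3% and 29.3% in the libraries against 30.9%, 30.8% and 30.2% in the rest, so it was below the rest in replicate 3. Among the IDR summits 65 of 102 did (63.7%), against 46.6% in the rest. Among each library's top 7405 it was 58.6%, 62.1% and 64.3%, with a mean of 61.7 ± 2.84% (SD, n = 3) against 45.8 ± 0.319% in the rest, and the libraries of the 2 sets did not overlap.

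This held on chromosome 4, at 38 of 58 IDR summits (65.5%), and on 2L, at 13 of 17. On 3L it was 9 of 15 and on 3R 3 of 5. On X it was 2 of 7, where 5 of the 7 IDR summits lie in the *fog* territory. Over all summits, most classes of position were close to the rest. Introns held 38.9% against 43.3% in the rest, intergenic sequence 37.4% against 36.0%, coding sequence 8.28% against 7.17%, 5′ UTRs 9.13% against 7.82% and 3′ UTRs 2.97% against 2.92%. The lower intron share was found in each library, with differences of −5.40, −4.74 and −5.22 points (exact sign-flip permutation p = 0.25). Against the rest within 2 Mb of the boundaries it was smaller, at −0.10 points in the pooled list (library mean −0.59 ± 0.73, SD, n = 3, exact sign-flip permutation p = 0.50). In the IDR set it was larger, with 24.5% of summits in introns against 39.0% in the rest. Intergenic sequence held 52.0% of the IDR summits against 46.6%.

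**Figure D4:**
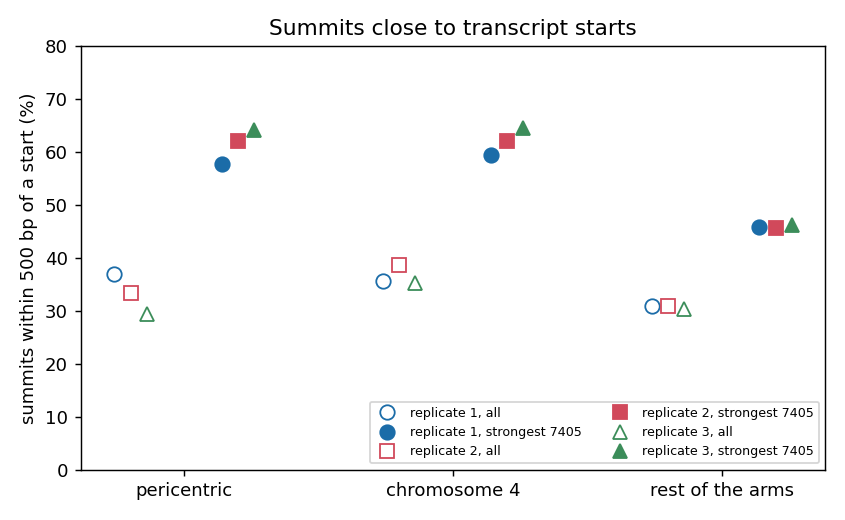
Share of summits within 500 bp of a transcript start for all summits of each library (open) and for its strongest 7405 (filled), in the pericentric regions, on chromosome 4 and in the rest, with 1 point per library. Among the strongest, the pericentric libraries lie between 57.8% and 64.1%, those of chromosome 4 between 59.3% and 64.5%, and the rest near 45.8%.

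Transposable elements held 32 of the summits (6.79%), against a background of 0.403% over the 6 arms. The share was 7.54%, 7.49% and 9.27% in replicates 1, 2 and 3, against 0.288%, 0.323% and 0.373% in the rest, with no overlap (exact sign-flip permutation p = 0.25). In the pooled list, the rest within 2 Mb of the boundaries had 1.70%, so the contrast with nearby sequence was smaller. The 3R region held 0 of the 32, and its share was 0%, 5.26% and 3.92% in replicates 1, 2 and 3. Elements cover more of these regions, 16.1% of the bases against 4.84% in the rest. Divided by that base share, the summit share was 0.421 in the regions and 0.0623 in the rest. Both values are below 1, so elements held fewer summits than their share of bases, and the shortfall was smaller in these regions. Reads from repeated copies may have no single placement, and their part in the shortfall was not tested.

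Of the 32 summits, 15 lay in INE-1 copies, a short element common on chromosome 4, 5 in copies of 1360, 3 each in invader1 and Cr1a, 2 in the F element and 1 each in gypsy8, S, Rt1c, Tc1 and H. Introns held 18 of them and intergenic sequence 14. Only 6 had a counterpart in all 3 libraries and 1 was in the IDR set. That one is the INE-1 window in *Ir40a* printed above, which ranked 5544, and 5172, 10927 and 5223 in the libraries. Of the 32, 2 had under 50% unique 32-base words around the summit.

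Repeat content close to the summits was far lower than in the regions at large. A summit can be called only where reads are placed, and the part of read placement in this contrast was not tested. Within 100 bp of the summit, 97.6% of bases were unique, against 45.1% over the regions, and 19.1% were soft-masked repeats, against 39.4%. The GC content there was 39.0%, against 41.8% in the rest, and lower in each library, with differences of −3.39, −3.79 and −2.47 points (exact sign-flip permutation p = 0.25). In all, 6 summits had under 50% unique bases around them, of which 4 were on 3R. None of the 6 was in the IDR set. The interval width, with a median of 416 bp, was the same as in the rest, and 436 of the 471 had this width.

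Words were counted in 201 bp around the summit and in windows of equal size 1000 bp away on both sides. TAATTA was in 18.0% of summit windows and 15.6% of flanks, against 16.0% and 12.7% in the rest. The excess over flanks was below that in the rest in replicates 1 and 3 and above it in replicate 2 (exact sign-flip permutation p = 0.50). The excess in replicate 3 was −0.49 points, so in that library summit windows held the word no more often than flanks. CAGGTA was in 9.34% of summit windows and 6.90% of flanks, against 7.35% and 4.78% in the rest, and its excess differed from the rest by 0.198, −0.182 and −1.004 points in replicates 1, 2 and 3 (exact sign-flip permutation p = 0.75).

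GAGAG was in 21.0% of summit windows and 17.3% of flanks, against 23.9% and 22.3% in the rest, so both kinds of window held it less often here. Its excess was above the rest by 2.61, 2.47 and 0.02 points (exact sign-flip permutation p = 0.25).

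TATCGATA was in 4.67% of summit windows and 2.55% of flanks, against 2.65% and 0.523% in the rest. The excess in the pooled list differed from the rest by −0.0053 points. In the libraries it was above the rest by 0.20, 0.88 and 1.39 points (mean 0.82 ± 0.60, SD, n = 3, exact sign-flip permutation p = 0.25), so the pooled list did not show the direction of the 3 libraries. The flanks here already held the word as often as summit windows did elsewhere. On 3L, 8 of the 81 windows held it.

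CACACA was in 18.7% of summit windows and 9.77% of flanks, against 20.1% and 16.7% in the rest. The excess was larger than in the rest by 3.92, 4.27 and 5.12 points in replicates 1, 2 and 3 (exact sign-flip permutation p = 0.25). The difference came with flanks that hold the word less often, while the summit windows were alike. The control word TAAATT was in 29.7% of summit windows and 35.8% of flanks, against 27.6% and 25.4% in the rest, a difference in excess of −7.15, −9.85 and −5.69 points. A word with no assigned factor thus differed by more points than any of the others, and the part of base composition in this was not tested. TAAATT can match in more ways than TAATTA, so their differences in points are not on equal scales.

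**Figure D5:**
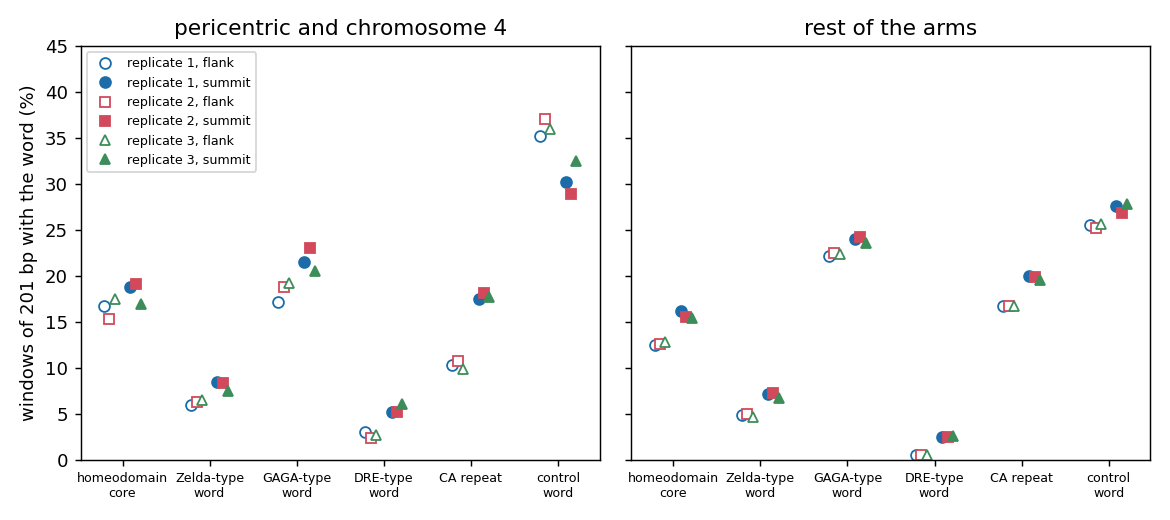
Share of 201 bp windows that hold each word, at summits (filled) and in flanks 1000 bp away (open), for the regions (left) and the rest (right), with 1 point per library. The words appear by kind: homeodomain core (TAATTA), Zelda, GAGA, DRE (TATCGATA), CA repeat and control (TAAATT). For the CA repeat and the control word the regions differ from the rest mainly in the flanks.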

How the data were processed

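ChIP-seq of eGFP-tagged zen was analysed in 3 biological replicates of 1 group, mapped by the replicate number in the labels. Per the deposited file notes, the authors called peaks on dm6 in each library and in the pool of all 3, against control alignments, and derived an IDR set. No source used here names the aligner or caller. The deposited signal is a score per peak on a scale that differs between lists, and it was used only to rank summits within a list. The deposited −log10 q-value was not used. No library lacking the tagged protein was analysed here.

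Summits were placed on the Ensembl release 115 annotation (BDGP 6.54), whose chromosome lengths hold all peaks. Unique sequence was counted as 32-base words in the RefSeq assembly, a step added after the data were seen, as was the transposable element count. Each library gave 1 difference, members minus rest, for an exact two-sided sign-flip permutation test, and 17 such results were computed. The steps were checked on simulated data. Named items were the 20 strongest summits, the strongest of each region, the 5 genes with most summits (here 6, with ties), listed genes with an IDR summit and the summits next to each boundary. The members and lists were chosen with earlier results of these data known. Of the listed genes, 5 lay outside the regions and 1 was not matched. Python 3.11.15, numpy 2.4.6, pandas 2.3.3 and matplotlib 3.10.9 were used. Whether replicates share any culture is not given beyond the label of biological replicate.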

Additional observations from a re-analysis of the deposited data

How the results depend on the processing

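Of the 231 values under alternatives, 199 kept their direction and, for counts, stayed within 1.5 times the main value, 29 reversed and 3 moved. The lower density, the closeness to starts, the lower intron share, the lower GC content and the excess of transposable elements kept their direction under every alternative run for them, though the intron difference shrank from −4.47 to −0.10 points against the rest within 2 Mb and the start difference from 5.30 to 2.80 without chromosome 4; the density difference lay between −3.49 (without chromosome 4) and −0.60 (chromosome 4 alone) on the log2 scale, and the element difference fell from 6.49 to 0.83 points in the IDR set. The rest are percentage points, members minus rest, and the cause of each reversal was not tested. The share in the top of the list turned to 0.44 with boundaries 0.5 Mb closer to the centromere and 2.24 on chromosome 4 alone, and the share found in the libraries to 0.34 with those boundaries. The intergenic difference turned to −0.36 in the top 14810 and −3.92 against the rest within 2 Mb. The coding difference turned to −0.42 in the IDR set and −0.03 with shifted boundaries, and soft-masked bases to −1.40 in the IDR set and −0.72 in the top 14810. TAATTA turned to 0.97 (IDR set), 0.27 (chromosome 4 alone), 0.021 (50 bp windows) and 1.42 (flanks at 3000 bp). CAGGTA turned to 0.94 without chromosome 4, 0.81 with 50 bp windows and 0.75 with flanks at 3000 bp, and GAGAG to −2.71 in the IDR set and −2.19 without chromosome 4. TATCGATA, at −0.01 in the main setting, became 0.041 (top 14810), 1.39 (without chromosome 4), 0.73 (rest within 2 Mb), 0.0038 (rest without pericentric 2R), 0.16 (50 bp windows) and 0.013 (flanks at 3000 bp).

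With each replicate left out in turn, the difference ranged from −2.72 to −2.58 for density, −3.19 to −1.07 for the top share, −7.31 to −3.41 for the share in the libraries, 3.17 to 5.15 for starts, −5.31 to −4.98 for introns, 1.95 to 4.23 for intergenic, −0.056 to 0.30 for coding, −3.59 to −2.93 for GC, 3.18 to 3.34 for soft-masked bases and 7.21 to 8.08 for elements. For the words it ranged from −2.39 to −0.41 for TAATTA, −0.59 to 0.0081 for CAGGTA, 1.24 to 2.54 for GAGAG, 0.54 to 1.14 for TATCGATA, 4.10 to 4.70 for CACACA and −8.50 to −6.42 for TAAATT. Coding changed sign without replicate 2, CAGGTA without replicate 3 and TATCGATA, against its pooled value, without any of the 3. With 2 libraries the smallest exact permutation p is 0.50. Genes with a summit on the neuronal and muscle list numbered 8 in the pooled list, 4 in the IDR set and 5 within 1000 bp of a start, and on the pericentric list 23 and 11 in the pooled list and IDR set. No comparison of conditions was possible because all 3 libraries belong to 1 group. The pairing used was of members with the rest within each library. Depth is unknown, so a stretch with few summits cannot be told apart from one with few placed reads.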
